A study of Mus musculus with 12 samples.

Results

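Protocadherins are cadherin-type adhesion proteins, and 45 of the 11548 genes with a peak of the RNA modification N6-methyladenosine (m6A) in mouse colon belonged to this family. They were taken as every gene whose symbol in the peak lists starts with Pcdh and that had a peak in at least 1 of 6 lists. The 45 genes were 2 Pcdha, 12 Pcdhb and 21 Pcdhg genes of the clustered families and 10 non-clustered genes. All mice were C57BL/6J males of 6 to 8 weeks that weighed 20 to 22 g. In the normal group there were 3 mice with no TNBS, and in the TNBS group 3 mice given 2,4,6-trinitrobenzenesulfonic acid at 5% w/v into the colon, a hapten that provokes colitis. RNA of each mouse was sequenced after pull-down with an m6A antibody and as input. Each mouse gave 1 deposited peak list, so the unit of comparison is the list of 1 mouse. The time from TNBS to sampling is not given in the labels, and the whole-tissue RNA holds every cell type of the colon wall.

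In the clustered families, neighbouring genes each carry a long first exon that codes for the whole extracellular part, the membrane span and some of the cytoplasmic tail. Pcdha and Pcdhg first exons are spliced to constant exons shared by their cluster, whereas a Pcdhb gene ends with its own exon. Neurons switch on different members through promoter choice, and the proteins bind like copies on other cells, which lets a neuron tell its own branches from those of others. The non-clustered protocadherins are separate genes with roles in adhesion and tissue patterning. m6A is often found in long internal exons and near stop codons, and it affects the splicing, stability and translation of RNA.

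A listed peak means that pulled-down RNA exceeded input at that place by the authors' caller, and it needs the transcript to be present. More RNA of a gene, more cells that make it and more methylation per RNA cannot be told apart from these lists. The lists held 16488, 16324 and 13992 peaks in normal 1 to 3, and 18752, 10971 and 19285 in TNBS 1 to 3, and the read depth behind them is unknown. TNBS 2 stood apart with the shortest list, and it also named only 3 of 14 fibroblast markers against 9 to 11 in the other libraries. TNBS 1 and TNBS 3 stood apart in another way. They listed 3 peaks each on the Y chromosome and none in Rbmy, a Y-linked gene, while the other 4 lists held 17 to 24 peaks there and 5 or 6 in Rbmy, although the labels call all mice male. The extraction text of the labels speaks of retinas. A peak in TNBS 2 in Abca4 was the only one in the list of 15 retina markers. The smooth muscle list gave 8 to 10 of 12 in each library, with 7 in all 6.

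Most Pcdh genes had a peak. The mouse gene table holds 70 Pcdh genes, and 45 of these, or 64.3%, had a peak, where 50.5% of 21900 protein-coding genes did. The share by family was 21 of 22 for Pcdhg, where Pcdhga10 alone had none, and 10 of 12 for the non-clustered genes, where Pcdh8 and Pcdh11x had none. For Pcdhb it was 12 of 22, with every listed gene in the later stretch from Pcdhb9 on, and no peak in Pcdhb1 to Pcdhb8, Pcdhb10 or Pcdhb13. Only Pcdha4 and Pcdhac2 of 14 Pcdha genes were named, but both of their regions lie within the spans of all 14. The Pcdhac2 region, from base 37143969, lies near the start of that gene at base 37143678. The Pcdha4 region ends at base 37186009, near the gene's end at base 37187657, so its name does not single out Pcdha4. Spans of Pcdhg genes overlap too, with 1 to 22 over each Pcdhg region, so these counts rest on the names that the files give. With naming by overlap, 58 Pcdh genes had a peak, since a peak then counts for every gene whose span it touches. The share of all genes under that naming was not analysed here, so this count has no background. One Pcdhg member, Pcdhgb8, is a transcribed pseudogene in the gene table. Which of these genes the colon transcribed without a peak was not analysed here.

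Normal 1, 2 and 3 listed 37, 35 and 38 protocadherin genes, and TNBS 1, 2 and 3 listed 40, 26 and 35. The means were 36.7 ± 1.53 in normal and 33.7 ± 7.10 in TNBS colon (SD, n = 3), and the ranges overlapped. The low value lay in TNBS 2, the short list, and without it the TNBS mean was 0.833 above the normal mean in place of 3.0 below. As a share of all genes with a peak, protocadherins made up 0.395% to 0.466% in normal and 0.371% to 0.419% in TNBS libraries. Without TNBS 1 and TNBS 3, the pair with few Y-linked peaks, the TNBS value is that of TNBS 2 alone and lies 10.7 genes below the normal mean.

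**Figure D1:**
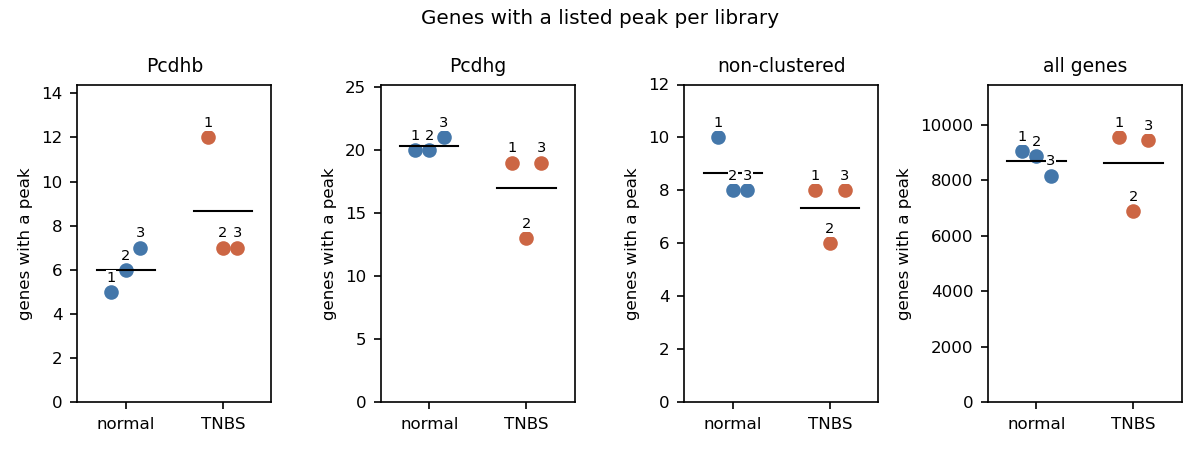
Number of genes with at least 1 listed m6A peak (vertical axes, each from 0) in each normal (blue) and TNBS (orange) library for Pcdhb, Pcdhg, the non-clustered protocadherins and all genes. Points are single mice with their number and lines are group means. TNBS 2 is lowest for Pcdhg (13) and all genes (6884), and TNBS 1 is highest for Pcdhb (12).

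By family, Pcdhb genes with a peak came to 5, 6 and 7 in normal colon and to 12, 7 and 7 in TNBS colon, and TNBS 1 alone lay above the normal range. Pcdhg genes numbered 20, 20 and 21 in normal and 19, 13 and 19 in TNBS. The groups did not overlap, though TNBS 1 and TNBS 3 lay only 1 gene below the lowest normal library. Pcdhga8 and Pcdhgb6 became members through normal lists only, so they could add to the normal counts alone. All genes with a peak numbered 9036, 8872 and 8156 in normal and 9539, 6884 and 9434 in TNBS libraries. No test was made on a count over chosen genes. Non-clustered genes numbered 10, 8 and 8 against 8, 6 and 8. Set gene by gene, 6 of the 12 Pcdhb genes were listed more often in TNBS colon and 1 less often, by number of libraries. Of these 6, Pcdhb9, Pcdhb11, Pcdhb12, Pcdhb15 and Pcdhb21 were in no normal list. They became members through TNBS lists only, so they could only count as more, and 3 of them were in TNBS 1 alone. Of the 21 Pcdhg genes, 7 were in fewer TNBS lists than normal lists, 14 in as many, and none in more. For all genes these shares were 23.9% fewer, 55.0% as many and 21.1% more. Of the Pcdhg genes with fewer, 5 lacked a peak in TNBS 2 alone. Pcdhga8 and Pcdhgb6 were in no TNBS list, so they could only count as fewer.

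Across the family 23 of 45 genes, or 51.1%, had a peak in all 6 libraries, close to the 48.1% of all genes. They were 4 Pcdhb, 13 Pcdhg and 6 non-clustered genes. A further 7 genes had one in every library but TNBS 2, namely Pcdhb14, Pcdhgb5, Pcdhgb7, Pcdhga11, Pcdhgb8, Pcdhga12 and Pcdh19. That is 15.6%, and over all genes the share was 11.5%. Only TNBS 1 listed Pcdhb12, Pcdhb15 and Pcdhb21, and only normal 1 listed Pcdh15.

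A gene was called restricted to a group when all 3 of its libraries listed it and no library of the opposite group did. This held for 1 protocadherin gene, Pcdhga8, on the normal side, where 1.04% of all genes were restricted, and for no protocadherin gene on the TNBS side, where 0.996% were. One gene of 45 is near the background share. The exact two-sided permutation test over all 20 assignments of the libraries gave p = 0.1 for Pcdhga8, the smallest it can give, and an adjusted p of 1 over 11548 genes. No gene of any kind could pass 0.05, adjusted or unadjusted, in this design.

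Pcdhga8 (Entrez 93716) codes for an A-type gamma protocadherin. Its peak began at the first base of the gene and lay at chr18:37725706-37728316 in mouse GRCm38 coordinates. The authors' fold enrichment of pulled-down over input RNA was 11.9, 10.1 and 6.99 in normal 1 to 3, and no TNBS list held a peak there. Normal 1 and 2 gave the same boundaries and normal 3 a shorter peak of 2342 bases. In the score of the authors' caller, minus 10 times the log10 of its p-value, these were peaks of middle or lower rank, at percentiles 56.4, 51.6 and 29.5 of their own lists. Both neighbours along the cluster were listed in TNBS colon. Pcdhgb4 upstream had a peak in all 6 libraries, and Pcdhgb5 downstream in all but TNBS 2. When peaks were given to genes by overlap with the gene table, Pcdhga8 was no longer restricted, since its span runs to the end of the cluster and holds the exons of the genes downstream. The region itself, which needs no gene name, was the 1 restricted protocadherin region of 61, and 1.54% of all 26654 regions were restricted to normal. None of the 61 was restricted to TNBS, where 0.949% of all were.

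A wider rule, at least 2 libraries more in a group, took 4 genes with fewer TNBS libraries and 3 with more. Over all genes 5.69% had at least 2 fewer and 6.74% at least 2 more. Fewer were seen for Pcdhga8, Pcdhgb6, Pcdhac2 and Pcdh20, and more for Pcdhb9, Pcdhb11 and Pcdhb18. Apart from Pcdhga8 each had p = 0.4 in the exact permutation test, and all 7 had an adjusted p of 1.

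Peaks at the top of the score range were listed in at least 5 lists for Pcdh1, Pcdh7, Pcdh17 and Pcdhgc3. Pcdh1 and Pcdh7, delta protocadherins of the first subgroup, each had a peak at a score of 3100 in all 6 lists. Many peaks share this score, 949 to 3174 in each list at or above it, so both sit in the tied top block of every list and have no order within it. For Pcdh1 (Entrez 75599), known for its part in human airway epithelium, that peak was chr18:38196694-38199528, with the same start and end in all 6 lists. Its fold enrichment was 29.3, 26.1 and 24.2 in the normal lists and 75.3, 39.1 and 78.5 in the TNBS lists. TNBS 1 and TNBS 3 gave the high values, and they are also the libraries with few Y-linked peaks. Another Pcdh1 region, chr18:38188342-38189942, had folds of 46.2, 46.5 and 39.8 in the normal group and 31.5, 33.1 and 42.6 in the TNBS group, which overlapped and had its lowest values in TNBS 1 and TNBS 2. Fold enrichments of separate lists have no common scale here, and no test was made of them. Of the 29 protocadherin regions listed in all 6 libraries, 3 had every TNBS fold above every normal fold, in Pcdh1, Pcdhb22 and Pcdhga2, and none had every TNBS fold below. Over all 7569 such regions 7.97% lay above in this way and 6.83% below. Pcdh1 also had the most peaks, with 5 or 6 in each list over 6 regions. Only the 204-base region at chr18:38209559-38209762 among them was missing in some lists, in TNBS 1 and TNBS 2.

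Pcdh7 (Entrez 54216) had a single peak of 4258 bases with identical bounds in all 6 lists. Its fold enrichment was 52.2, 41.6 and 32.1 in normal and 53.3, 13.9 and 46.2 in TNBS lists, with TNBS 2 the low one. Pcdh17 (Entrez 219228), a delta protocadherin of the second subgroup with a role in synapses, had 3 or 4 peaks in each list over 3 regions. The first, chr14:84443563-84448653, was one 5091-base peak in 4 lists and was split into 2 in TNBS 1 and TNBS 2. Its highest fold there was 26.0, 17.3 and 15.8 in normal and 17.3, 20.6 and 28.7 in TNBS lists, so the groups overlapped. In the middle region, chr14:84477515-84478250, the score stood at percentiles 38.7, 49.1 and 45.3 for the normal group and 4.51, 6.43 and 8.43 for the TNBS group. It was the only 1 of the 29 regions with every TNBS percentile below every normal one, where 5.55% of all such regions were. In 3 regions, of Pcdhb22, Pcdhga2 and Pcdhga3, every TNBS percentile lay above, where 10.5% of all did. Ranks from lists of different length cannot show whether a peak changed. The folds of the middle Pcdh17 region overlapped, at 7.28, 9.08 and 9.44 for the normal group and 3.61, 6.55 and 7.58 for the TNBS group. Pcdh9 (Entrez 211712) had peaks in all 6 lists in a pair of regions, the stronger at percentiles 75.8 to 90.3 of its list.

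RefSeq transcript starts were examined for some of the non-clustered genes only. The remaining members, among them every clustered gene, were not examined in this way, and their gene edges are treated further below. The starts of Pcdh10, Pcdh15, Pcdh19 and Pcdh20 lay in a peak in 0 libraries. Among the genes examined, a start lay inside a listed peak in all 6 libraries for Pcdh18, Pcdh7, Pcdh17 and Pcdh9. For Pcdh18, Pcdh17 and Pcdh9 a peak edge fell on that start itself in all 6. RefSeq also gives Pcdh9 a start just upstream, at base 93890679, which lay in a peak in 0 libraries, and the start used here is at base 93890669. The first 50 transcribed bases were searched on the transcribed strand for the word GGAC, the main core that m6A writers use, and for the related words GAAC, then AGAC, then AAAC. No more than these 50 bases of a peak were read. Pcdh17 held AGAC and GGAC, Pcdh18 held AGAC, Pcdh9 held AAAC and Pcdh7 held none. At least 1 of the 4 words was present in the same window of 50.8% of 32851 RefSeq promoters, and GGAC in 18.9%, so these matches are common. The 30 bases that hold the matches are printed 5′ to 3′ from RefSeq (GRCm38.p6), with the matched letters in capitals, to show the RNA at the edge of these peaks.
Pcdh17, chr14:84443570-84443599, plus strand: aagAGACgctggggagagaatccGGACtgc
Pcdh18, chr3:49757267-49757296, minus strand: aagtgaagttgtagagattttcAGACtgga
Pcdh9, chr14:93890620-93890649, minus strand: agaggggggcagaagagaagggaaAAACga
Such matches describe letters and are no measured m6A sites.

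The other non-clustered genes were weaker or less often listed. Pcdh18 (Entrez 73173) had a region at the start of the gene, chr3:49754378-49757316, in all 6 lists. Its fold enrichment was 16.5, 13.6 and 8.52 in normal and 14.2, 5.99 and 19.7 in TNBS lists. A second region near the end of the gene, chr3:49744274-49745274, was listed everywhere but in TNBS 2, so TNBS 2 was again the weak library. Pcdh20 (Entrez 219257) had a peak of 3014 to 3050 bases in all normal lists, at percentiles 63.6, 66.6 and 71.6. In the TNBS group only TNBS 1 listed it, at percentile 38.8, and the exact permutation p was 0.4. Pcdh19 (Entrez 279653), on the X chromosome and the cause of an epilepsy in humans when mutated, was absent from TNBS 2 alone.

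Pcdh12 (Entrez 53601), known from vascular endothelium, had a peak in all 6 libraries but not in one place. The region at chr18:38281191-38284401 was listed in all but TNBS 3, and the region at chr18:38267092-38269211, which begins at the lower edge of the gene, in TNBS 1 and TNBS 3 only. Endothelial markers with a peak numbered 12 of 16 in each normal library and 14, 13 and 13 in TNBS libraries, so the groups did not overlap. The gap was small, and 10 of the 14 markers with a peak were in all 6 libraries. No test was made on this chosen list. Genes of any kind with a peak numbered 9036, 8872 and 8156 in normal and 9539, 6884 and 9434 in TNBS libraries. Egfl7, a secreted endothelial factor, was listed in 3 TNBS and 0 normal libraries, as were 0.996% of all genes. The transcription factor Sox17 was listed in normal 1 and all 3 TNBS libraries. Lyve1, a marker of lymphatic vessels, was missing in TNBS 2 alone, and Cdh5, the cadherin of endothelial junctions, was listed in all 6. Their part in the result was not tested. Pcdh10 (Entrez 18526) was listed once in each group, in different regions and at percentiles 2.91 and 2.27. Pcdh15 (Entrez 11994), part of the tip link of hair cells in the ear, was listed in normal 1 alone at percentile 12.99.

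**Figure D2:**
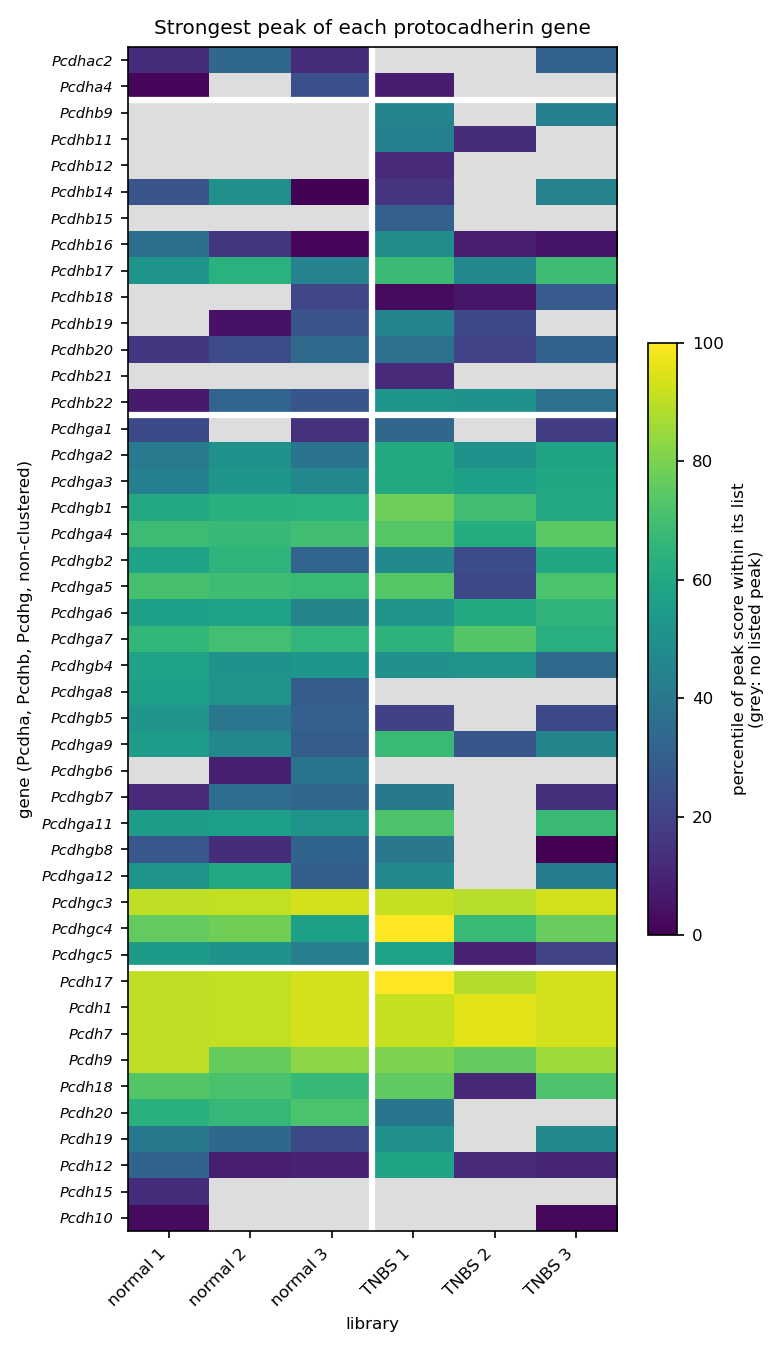
Percentile of the score of the strongest peak of each of the 45 protocadherin genes within its own list (colour, 0 to 100), by gene and library, with grey where no peak was listed. Pcdh1, Pcdh7, Pcdh17 and Pcdhgc3 are near the top of every list, and grey cells gather in TNBS 2 and among the Pcdhb genes in every library but TNBS 1.

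The Pcdhg cluster was listed almost gene by gene. Pcdhgc3 (Entrez 93706), a C-type gamma gene of the kind that many neurons express rather than a chosen few, scored 3100, the tied top score, in 5 lists and 2317 in TNBS 2, at percentiles of 88.8 to 93.1. Pcdhgc4 reached that block in TNBS 1, where its score was 3208, and no order is read between scores at or above 3100. The Pcdhgc3 peak, chr18:37806410-37808977, had the same 2568 bases in all 6 lists. Its fold enrichment was 10.8, 10.2 and 8.24 in normal and 27.7, 8.81 and 27.2 in TNBS lists. TNBS 1 and TNBS 3 were the high lists, as for Pcdh1, and TNBS 2 lay among the normal values.

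The Pcdhg genes as a whole gave peaks of middle rank. The median percentile of their strongest peaks was 56.3, 54.7 and 42.6 in normal and 60.6, 56.5 and 59.8 in TNBS lists. Pcdhga4 ran from 61.9 to 74.6, Pcdhga7 from 62.5 to 73.4 and Pcdhgb1 from 60.4 to 77.8, always above the middle of their lists. Pcdhgb6 lay low, listed only in normal 2 and normal 3 at percentiles 8.94 and 39.1. Pcdhga1, the first gene of the cluster, was absent from normal 2 and TNBS 2, with percentiles of 14.4 to 33.1 elsewhere. The same genes that TNBS 2 lacked were not always weak in the other lists, for Pcdhga11 stood at 51.8 to 72.1 there.

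Past the last first exon, of Pcdhgc5, the cluster holds the constant exons shared by its genes. Peaks there were named Pcdhgb1 or Pcdhga9 in the files, though the spans of 22 Pcdhg genes cover the first 2 of these regions. A 59-base peak at chr18:37825021-37825079 was listed in normal 1, normal 2 and TNBS 3 with folds of 6.81, 7.87 and 9.57. An 89-base peak at chr18:37833265-37833353 was listed in TNBS 1 and TNBS 3 with folds of 10.8 and 8.35. A peak of 1971 bases at chr18:37839903-37841873, at the end of the cluster, was listed in the same pair with folds of 9.84 and 10.9. No normal library and not TNBS 2, the shortest list, held the last 2. A difference between the groups and a trait of TNBS 1 and TNBS 3 cannot be told apart here. The signal of such a peak may come from any gamma transcript, and the name it carries does not say which.

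Both Pcdha genes were at low percentiles. Pcdhac2 (Entrez 353237), a C-type alpha gene, was listed in 3 normal libraries at 12.8, 33.3 and 13.2 and in TNBS 3 at 31.4. Pcdha4 (Entrez 12936) was named for a peak at chr18:37184946-37186009 in normal 1, normal 3 and TNBS 1, a region that the spans of all 14 Pcdha genes cover. No other region of the Pcdha genes held a listed peak.

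Among the 12 Pcdhb genes only Pcdhb17 had a mean percentile above 50, at 57.2 over the lists that held it. Pcdhb16, Pcdhb17, Pcdhb20 and Pcdhb22 were listed in all 6 libraries, with Pcdhb17 at percentiles of 51.7, 63.7 and 44.3 in normal and 68.0, 46.5 and 68.9 in TNBS lists. Pcdhb22 had folds of 4.68, 6.08 and 7.36 in normal and 7.93, 7.49 and 9.02 in TNBS lists. Pcdhb9 (Entrez 93880), with folds of 8.81 and 7.58, was listed in TNBS 1 and TNBS 3, and Pcdhb11 (Entrez 93882), with folds of 8.66 and 8.24, in TNBS 1 and TNBS 2. Pcdhb18 had a peak in all TNBS libraries and in normal 3. Since Pcdhb genes are alike in sequence, reads shared between them may be split or moved, and how the authors placed such reads is not given in the sources used here.

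**Figure D3:**
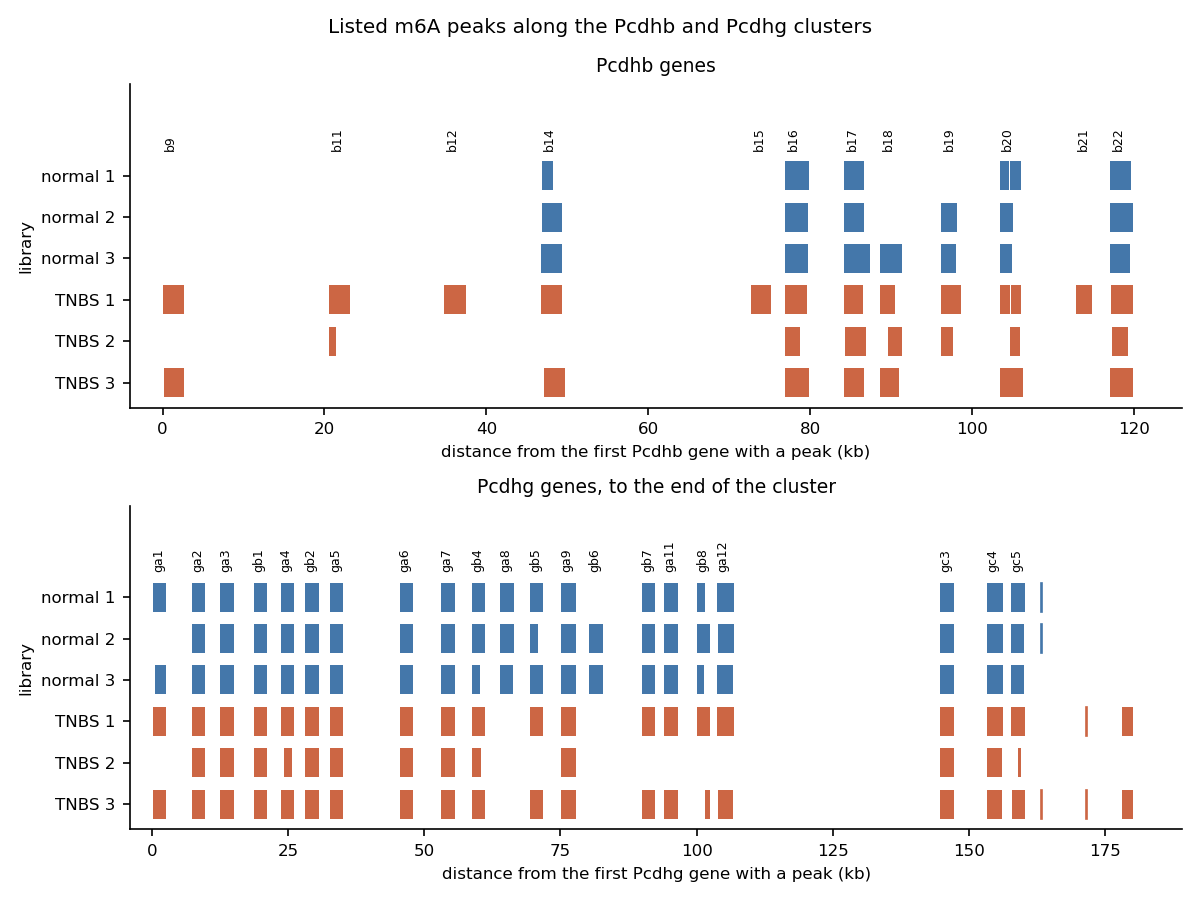
Positions of the listed peaks (bars, to scale in kb from the first gene with a peak, with a thin outline on peaks under 300 bases) in each library along the Pcdhb genes and along the Pcdhg genes to the end of their cluster. Gene labels omit Pcdh. Pcdhga8 is filled only in normal libraries, TNBS 1 fills every Pcdhb gene shown, and peaks at the far right lie in TNBS 1 and TNBS 3.

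Protocadherin peaks were wide as a set, mainly those of Pcdhb and Pcdhg genes. The median of the set was 2426 ± 12 bases in normal and 2111 ± 540 in TNBS lists (SD, n = 3). Over all peaks it was 629 ± 24.3 and 537 ± 71.4. TNBS 2 gave the narrowest protocadherin peaks, with a median of 1487 bases. More than 2000 bases were covered by 63.7 ± 4.17% of protocadherin peaks in normal and 57.4 ± 19.4% in TNBS lists, against 11.2 ± 0.465% and 8.97 ± 1.02% of all peaks. Pcdhg peaks were the most even, with list medians of 2398 to 2475 bases. Non-clustered peaks were narrower, with list medians of 1169 to 1601 bases. Single peaks could be narrow in any case, down to 59 bases for a peak named Pcdhgb1. Some peaks met an edge of their gene. Of the 12 Pcdhb genes 10 had a peak with a bound at the gene's own first or last base, as did 12 of 21 Pcdhg genes, 2 of 10 non-clustered genes and 0 of 2 Pcdha genes. Over 11201 genes in the table the share was 33.5%. A wide peak over a whole first exon gives no position of an m6A site within it.

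**Figure D4:**
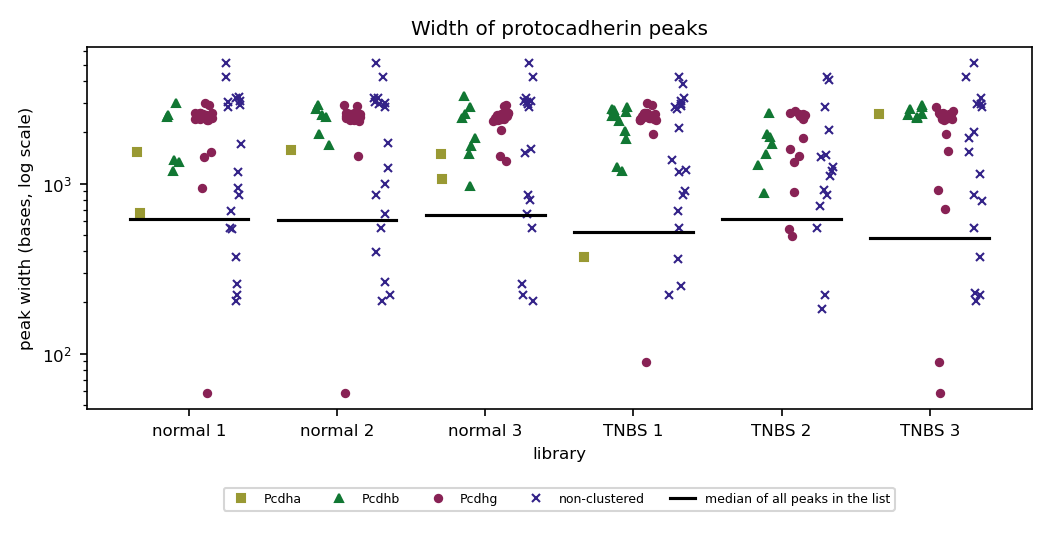
Width of each protocadherin peak (vertical axis in bases, log scale) by library and family, with the median width of all peaks in that list as a black line. Most Pcdhb and Pcdhg peaks lie well above the list medians, which run from 477 to 656 bases.

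Of the 61 merged protocadherin regions, 29 were listed in all 6 libraries, or 47.5%, where 28.4% of all regions were. Of those 29 regions, 10 had the same start and end in all 6 lists, or 34.5%, below the 51.7% of all such regions. They lay in Pcdh9, Pcdhga2, Pcdhgb2, Pcdhga7, Pcdhga9, Pcdhgc3, Pcdh7 and Pcdh1, the last with 3 of them. Between the Pcdhb and Pcdhg genes the lists held only Taf7, a subunit of a general transcription factor, in all 6 libraries, and the unnamed transcript 3222401L13Rik in normal 1, TNBS 1 and TNBS 3. Both were chosen after their values were seen.

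The false discovery rate that the authors' caller gave stood at 100% for 3, 6 and 22 protocadherin peaks in normal 1 to 3 and for 41, 37 and 48 in TNBS 1 to 3. The lists as a whole went the same way, with 10.5%, 13.7% and 37.8% of all peaks at that rate in normal 1 to 3 and 66.6%, 100% and 99.99% in TNBS 1 to 3, so this belongs to the lists and is not particular to protocadherins. These values were not used to choose peaks.

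Genes tied to protocadherins often had a peak, in short chosen lists that were not tested. For comparison, 50.5% of protein-coding genes had a peak, and 48.1% of genes with a peak had one in all 6 libraries. Of 15 regulators of protocadherin promoter choice 11 had a peak, 10 of them in all 6 libraries. Among these were Ctcf, which brings promoters and enhancers together, and the DNA methyltransferases Dnmt1 and Dnmt3a. Smchd1, which keeps parts of the cluster silent, had a peak in normal 3, TNBS 1 and TNBS 3. Of 23 partners and signalling genes 18 had a peak, 12 in all 6. Set, which codes for a histone chaperone, was listed in 3 normal and 0 TNBS libraries, as were 1.04% of all genes. Brk1, a part of the WAVE complex that drives actin, was listed in normal 3, TNBS 1 and TNBS 3. Nckap1 of the same complex was listed in normal 1, normal 2 and TNBS 1, and the small GTPase Rhoa in TNBS 3 alone. The groups overlapped in both lists, with 10 or 11 regulators and 13 to 16 partners in a library.

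Of 47 other cadherin genes 21 had a peak, with 17, 18 and 18 in normal and 17, 13 and 19 in TNBS libraries. None was restricted to a group, and the low value was again TNBS 2. Cdh19 was listed in 3 normal libraries and TNBS 2, and Cdh11, a mesenchymal cadherin, in all but TNBS 2. Dsc2, a cadherin of desmosomes, was listed in normal 2 and 3 TNBS libraries, and the atypical cadherin Fat2 in TNBS 2 and TNBS 3.

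Markers of cells that could carry protocadherin transcripts varied as well. Enteric neuron and glia markers, 19 in the list, gave 5, 8 and 7 genes with a peak in normal colon and 7, 6 and 9 in TNBS colon, and the groups overlapped. The neuropeptide gene Gal was listed in TNBS 1 and TNBS 3, and Erbb3 in all but normal 3. Elavl4, which codes for a neuronal RNA-binding protein, was listed in normal 2 alone. Colon epithelium markers numbered 4, 5 and 4 of 15 against 6, 4 and 9, with Tff3, a goblet cell peptide, in TNBS 1 and TNBS 3 and Epcam in TNBS 3 alone. Leukocyte markers numbered 6, 5 and 4 of 14 against 6, 2 and 4, with Ptprc in normal 1 and normal 2 and S100a9 in TNBS 1 and TNBS 2. Fibroblast markers numbered 10, 9 and 10 of 14 against 11, 3 and 11, with Col3a1 in TNBS 1 and TNBS 3, and Col1a1 was missing in TNBS 2 alone, as were the 7 protocadherin genes named above. The part of these cells in the protocadherin lists was not tested.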

How the data were processed

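Colon RNA of 6 mice was measured by m6A pull-down and input sequencing (12 libraries), and the authors deposited 1 list of peaks in mRNA per mouse. Per the file headers, the lists give for each peak a score equal to minus 10 × log10 of its p-value, a fold enrichment over input (ratio) and a false discovery rate in percent, as the authors deposited them. Per the submitters' processing notes, CASAVA 1.8 and BWA were used and hg19 is named, a human build. At least 99.1% of peaks overlapped their own gene in the mouse GRCm38 table, so positions are given in that build. File starts count from 0, and 1 was added. Caller settings and depth are not given in the sources used here.

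Groups and mouse numbers came from the labels. Nothing in them says more on how mice were kept apart, so p-values apply to these libraries only. They place the actual grouping among all 20 assignments of the libraries. Presence of a peak per gene, and per region merged over lists sharing at least 1 base, was compared with exact two-sided permutation tests, adjusted by Benjamini-Hochberg over all genes or regions. Scores and folds describe peaks within a list; percentile is (rank minus 0.5) over the list length, ties averaged. Members and gene lists were chosen with earlier results of these data known. All Pcdh genes were named, and from any further list at most 4 genes, those whose number of libraries differed most between groups. One gene that this rule takes is not reported here. Alternatives were a caller p of 1e-10, a fold of 4, equal list lengths, overlap naming, 50% overlap, a difference of 2 libraries, left-out libraries and a replicate block. The code of the presence tests was run on simulated data, with restricted genes planted in the form that the rule looks for. That run checks the code alone. Python 3.11.15, pandas 2.3.3, numpy 2.4.6 and matplotlib 3.10.9 were used. Classes of exon and motifs across peaks were not analysed here.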

Additional observations from a re-analysis of the deposited data

How the results depend on the processing

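The difference of -3.0 protocadherin genes (TNBS minus normal) was -5.0 with a caller p of 1e-10 or less, -2.67 with a fold of at least 4, -3.67 with lists shortened to 10971 peaks each and -3.33 with overlap naming. It ran from -6.17 to 0.833 over libraries left out, positive only without TNBS 2, and was -10.7 with both TNBS 1 and TNBS 3 left out, a choice made after seeing the data. Such a setting leaves TNBS 2 alone, which loosens the rule for a restricted gene. The 1 protocadherin gene restricted to normal became 3 with equal lists (Pcdh20, Pcdhga8 and Pcdhgb5), 0 with overlap naming, 4 under a difference of at least 2 libraries, 10 without TNBS 1 and TNBS 3, and 1 to 2 over libraries left out. The TNBS count of 0 became 3 under a difference of at least 2, 1 without TNBS 1 and TNBS 3, and 0 to 1 over libraries left out. Normal-restricted protocadherin regions were 1, against 2 at the caller p (Pcdh17 and Pcdhga8), 3 with equal lists, 12 without TNBS 1 and TNBS 3, and 1 to 3 over libraries left out. TNBS-restricted ones were 0, against 1 without TNBS 1 and TNBS 3 and 0 to 4 over libraries left out, with 4 without TNBS 2 (Pcdh12, Pcdhb9, Pcdhga9 and Pcdhgb1). Pcdhga8 stayed restricted under the caller p, the fold, equal lists and each left-out library, but not under overlap naming.

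Over all genes, 120 normal-restricted genes became 210 with equal lists, 657 under a difference of at least 2, 1762 without TNBS 1 and TNBS 3, and 145 to 347 over libraries left out. The 115 TNBS-restricted genes became 778, 510 and 151 to 537 under the last 3 of these. Of regions, 411 normal-restricted became 3678 without TNBS 1 and TNBS 3 and 475 to 930 over libraries left out, and 253 TNBS-restricted became 168 at the caller p, 1243 without TNBS 1 and TNBS 3 and 316 to 2102 over libraries left out. With the replicate block the counts were 1 and 0 protocadherin genes and 120 and 115 genes in all, unchanged, with a smallest p of 0.25. Libraries of the same number had correlations of deviations of 0.0319, -0.0537 and -0.0356, and those of different number ran from -0.0522 to 0.071. Such values cannot show whether a number marks a shared batch, and the main tests used no pairing. The causes of these shifts were not tested. Without read depths, an absent peak may be a signal under the caller's threshold.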
